A study of Mus musculus with 6 samples.

Results

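Transcripts of 10 genes of the circadian clock and its output were followed in the irradiated mouse intestine. They are the period genes Per1, Per2 and Per3, the cryptochrome Cry1, the nuclear receptors Nr1d1 and Nr1d2, the transcription factors Dbp and Tef, and Npas2 and Bhlhe41, and they were chosen by symbol from the annotation of the array. All 10 genes had a probe, 17 probes in all, among 19057 named genes and 45281 probes. Where a gene had several probes, the one of highest average signal stands for it and is called the brightest. RNA was read on Illumina MouseWG-6 v2 arrays from intestines of male C57 mice after 7 Gy of total body radiation, 3 given free ubiquitin (free Ub) and 3 given the vehicle PBS. All 6 samples are from irradiated mice, and intestines without radiation were not analysed here. The sample labels place the collection 3.5 days after radiation, which is 12 h past a whole day, the injection after radiation, and the age at 4 weeks. The legend and methods differ from the labels in the time, the order of injection and radiation, and the age. The hour of radiation or of collection is not given in the sources used here. The labels do not say that the replicates of a group were separate animals, so p-values measure only the spread between these samples, which may be technical. In whole intestine, fewer cells of a type and less RNA per cell cannot be told apart.

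The clock is a loop of transcription factors. CLOCK or its relative NPAS2 pairs with BMAL1, the product of Arntl, and activates genes through the E-box, among them the Per and Cry genes, whose proteins repress the pair. Nr1d1 and Nr1d2 encode REV-ERB alpha and beta, which repress Arntl and Npas2, and DBP and TEF carry the rhythm to output genes through the D-box. In mouse peripheral tissues, Dbp and Nr1d1 are high in the day when Arntl and Npas2 are low, so that their balance tells the phase, and the gut clock is also set by the time of feeding.

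The promoters of the members were searched for the elements of this loop, and the stretches that hold one are shown. RefSeq promoter windows of build GRCm38.p6, from 250 bases before to 50 after a start, were found for 9 of the 10 members in 11 windows. The E-box CACGTG, which reads the same on both strands, was in 5 of these windows, of Per1, Tef (both of its windows), Cry1 and Bhlhe41, and in 7.15% of all 32851 windows. The variant CACGTT or its reverse complement was in 2 member windows, of Nr1d1 and Cry1 (4.68% of all). The D-box TTATGTAA or its reverse complement was in 1 window, of Per3, at 2 positions (0.938% of all). The element bound by REV-ERB and ROR, searched as TAGGTCA on both strands, was in 0 of the 11 (2.61% of all), as was the cyclic AMP element TGACGTCA (1.79% of all), which says only that these letters are not there. A match is a description and not a shown site. The stretches around the matches, which lie 28 to 205 bases before a start, are given 5′ to 3′ on the strand of the gene, with the motif that a line is named for in capitals. Both stretches of Cry1 overlap, so that each holds the motif of the other in lower case. They lie at chr11:69098761-69098810 (+) for Per1, chr15:81802524-81802573 (+) and chr15:81811254-81811303 (+) for Tef, chr10:85185087-85185136 (-) and chr10:85185106-85185155 (-) for Cry1 and chr6:145865546-145865595 (-) for Bhlhe41. That of Nr1d1 is at chr11:98775378-98775427 (-), and those of Per3 are at chr4:151044841-151044892 (-) and chr4:151044794-151044845 (-).
Per1 E-box: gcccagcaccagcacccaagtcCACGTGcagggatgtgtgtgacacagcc
Tef E-box, first start: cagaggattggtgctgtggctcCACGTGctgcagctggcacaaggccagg
Tef E-box, other start: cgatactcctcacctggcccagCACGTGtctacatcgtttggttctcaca
Cry1 E-box: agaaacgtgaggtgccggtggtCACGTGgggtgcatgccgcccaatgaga
Cry1 E-box variant: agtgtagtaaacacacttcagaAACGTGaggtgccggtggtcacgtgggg
Bhlhe41 E-box: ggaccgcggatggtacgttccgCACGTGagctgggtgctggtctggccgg
Nr1d1 E-box variant: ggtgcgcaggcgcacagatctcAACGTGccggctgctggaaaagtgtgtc
Per3 D-box, far: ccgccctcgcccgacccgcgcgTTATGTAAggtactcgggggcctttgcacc
Per3 D-box, near: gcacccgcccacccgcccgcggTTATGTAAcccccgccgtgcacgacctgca

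For no clock output gene did the difference between free Ub and PBS intestines pass the test on the brightest probe. None of the 10 members passed an adjusted p under 0.05 in limma (0 of 10 on the brightest probe, beside 0.053% of all probes), and 0 passed an unadjusted p under 0.05 (5.16% of all probes) or the fold and p of the study's threshold (2.46% of all probes). By their means 4 members stood above PBS in the free Ub intestines and 5 below, and 1 lay at the floor throughout, that is, within 0.01 of the lowest value of each array. Per1 changed side with each array centred on its median (0.02) and Per2 with the mean of its probes (0.18). The median difference of the members was -0.01 on the log2 scale, beside -0.02 over all genes measured in the same way. Of the 8 members above the floor on all 6 arrays, 0 had groups that did not overlap (11.3% of all probes above the floor). On the other probes of the members, 1 of 7 passed an unadjusted p under 0.05, a dim probe of Per2. With 3 samples a group an exact permutation test cannot go below p = 0.1.

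**Figure D1:**
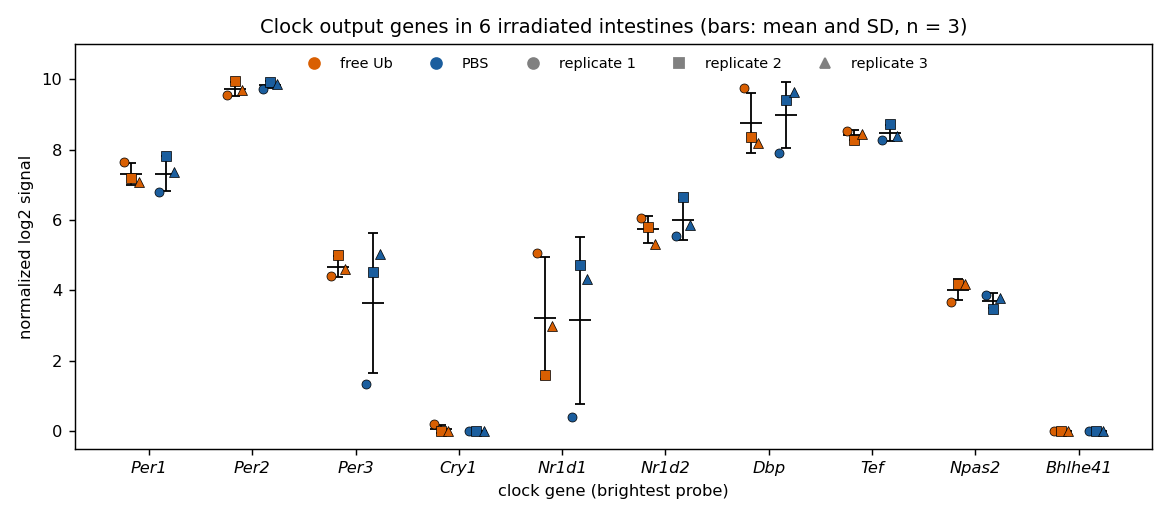
Normalized log2 signal (vertical axis) of the 10 clock output genes on their brightest probe in 3 free Ub and 3 PBS intestines, with the mean and SD of each group. The groups overlap for the 8 genes above the floor on all 6 arrays, and the points of Dbp and Nr1d1 lie far apart within each group, where Dbp runs from 7.91 to 9.74 over the 6 intestines.

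Dbp, the D-box activator whose transcript swings widely over the day, varied within both groups. Its log2 signal was 9.74, 8.35 and 8.20 in the free Ub intestines (replicates 1 to 3), against 7.91, 9.40 and 9.64 in the PBS intestines. The values fell into 2 sets of 3, with a gap of 1.05 between them, and each set held samples of both groups. Free Ub averaged 8.76 ± 0.85 and PBS 8.99 ± 0.94 (mean ± SD, n = 3), a difference of -0.22 (95% interval -2.04 to 1.60, limma, adjusted p = 0.979), and it ran from -0.76 to 0.11 when each sample in turn was left out. From the lowest to the highest intestine Dbp spanned 3.56-fold. Its SD within groups was 0.90, against a median of 0.20 over the 9485 probes with a mean above 6, of which 1.25% had an SD as large.

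Tef, of the same family of PAR bZIP factors, had a small spread. It read 8.53, 8.26 and 8.43 with free Ub, against 8.28, 8.72 and 8.40 with PBS, and the groups overlapped. The difference was -0.06 (interval -0.45 to 0.33, adjusted p = 0.979), and the SD within groups of 0.19 was near the median of probes of that brightness. Its other probe, which is annotated to another transcript, was dim and read 3.35, 3.36 and 0.17 with free Ub, against the floor, 2.94 and 3.98 with PBS.

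Nr1d1 and Nr1d2, the REV-ERB repressors of Arntl, also varied within the groups. The log2 signal of Nr1d1 was 5.06, 1.61 and 2.99 with free Ub, against 0.41, 4.72 and 4.32 with PBS. Free Ub replicate 1 and PBS replicates 2 and 3 were high and the other 3 low, as for Dbp. The difference was 0.08 with an interval of -4.16 to 4.31 (adjusted p = 0.99), which leaves even a large difference undetectable, and it was -1.29 without PBS replicate 1 and -0.85 without free Ub replicate 1. Its SD within groups of 2.08 was reached by 0.0802% of the 8729 probes with a mean of 3 to 6, whose median was 0.42. The probe of Nr1d1 is dim, with a mean of 3.18 at the low end of that range and values down to 0.41, near the floor. With values under 4 raised to 4 its difference was 0.01. Whether the spread is that of the transcript or of a dim probe was not tested. Nr1d2 read 6.07, 5.80 and 5.32 with free Ub, against 5.54, 6.65 and 5.85 with PBS. The same 3 intestines were its highest, and the difference was -0.28 (interval -1.27 to 0.71, adjusted p = 0.952). Its other probe was at the floor on 5 arrays and at 2.50 in PBS replicate 2.

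The period genes, whose proteins repress their own activators, had unequal spreads. An SD within groups as large as that of Per1 was seen in 6.18% of probes of like brightness, for Per2 in 70.3% and for Per3 in 0.905%. Per1 had 7.66, 7.20 and 7.07 with free Ub, against 6.80, 7.82 and 7.35 with PBS. Its difference was -0.01 (interval -0.87 to 0.85, adjusted p = 0.992), and its 3 highest intestines were again those of Dbp. A dimmer probe of Per1 read 6.40, 5.82 and 5.39 with free Ub, against 6.28, 6.41 and 6.28 with PBS, a difference of -0.45 (adjusted p = 0.872), and the remaining probe was at the floor on all 6 arrays. Per2 was nearly level on its brightest probe, with 9.55, 9.94 and 9.70 with free Ub, against 9.73, 9.92 and 9.87 with PBS. Its SD within groups was 0.15 and its difference -0.11 (interval -0.43 to 0.21, adjusted p = 0.895). The second probe of Per2 differed by -0.01. The dim one read 3.38, 3.71 and 3.83 with free Ub, against 3.01, 3.32 and 2.63 with PBS, without overlap (difference 0.66, limma p = 0.0382, adjusted p = 0.872, exact permutation p = 0.1), so that the probes of this gene did not point one way. Per3 had 4.40, 5.0 and 4.62 with free Ub, against 1.35, 4.52 and 5.02 with PBS. PBS replicate 1 alone was low. The difference was 1.04 (interval -1.85 to 3.94, adjusted p = 0.888) and -0.10 without that sample, 0.16 with values under 4 raised to 4 and 0.52 with the mean of its probes.

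Npas2, which can replace CLOCK as the partner of BMAL1, was measured on a single dim probe. It read 3.68, 4.19 and 4.17 with free Ub, against 3.88, 3.46 and 3.78 with PBS, and free Ub replicate 1 lay inside the PBS range. The difference was 0.31 (interval -0.21 to 0.83, limma, adjusted p = 0.872). The 3 intestines highest in Dbp were the 3 lowest in Npas2. Cry1, a repressor of the loop, was at the floor on 5 arrays and read 0.20 in free Ub replicate 1. Bhlhe41, a repressor that competes for the E-box and is also named DEC2, was at the floor on all 6. For both genes the arrays give no measure of a change, and whether the transcript or the probe is lacking was not tested.

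**Figure D2:**
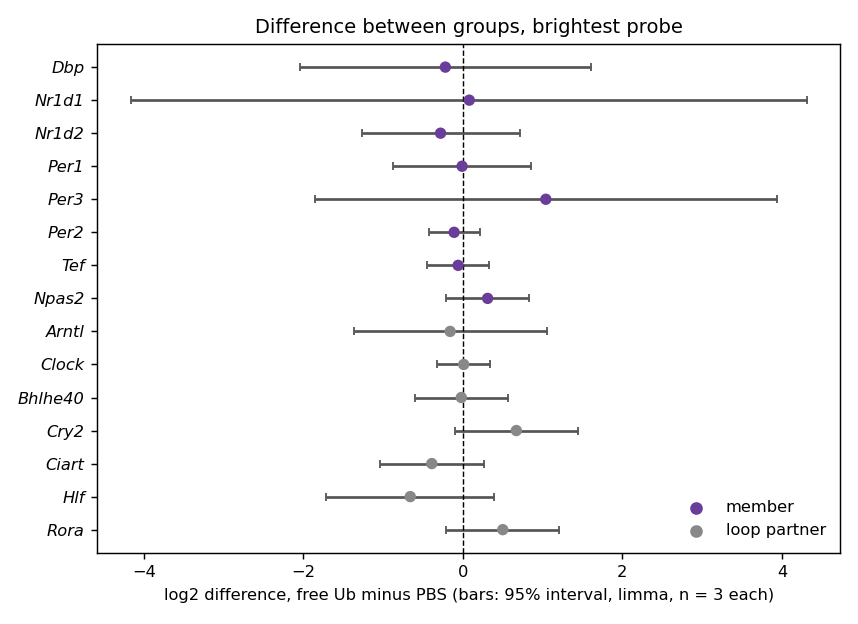
Difference in log2 signal, free Ub minus PBS, with its 95% interval from limma (n = 3 each) for the 8 members and 7 loop partners above the floor on all 6 arrays, brightest probe. Every interval includes 0, and those of Nr1d1, Per3 and Dbp are the widest, that of Nr1d1 reaching from -4.16 to 4.31.

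Several clock genes had the same 3 intestines highest, and this set crossed the treatment groups. Free Ub replicate 1 and PBS replicates 2 and 3 were the 3 highest in Dbp, and also in Nr1d1, Nr1d2 and Per1, hence in 4 of the 8 members measured on all arrays. They were the 3 lowest in 1 member, Npas2. The margin was thin in Nr1d2, at 5.85 in PBS replicate 3 against 5.80 in free Ub replicate 2. It was also thin in Npas2, at 3.78 in PBS replicate 3 against 3.88 in PBS replicate 1. Per2, Per3 and Tef ranked the intestines in another way. The 3 intestines were named from Dbp, so its own place among the 4 members was fixed. The share of all probes with the same split was not computed, for members or for loop partners. A contrast was formed for each intestine from the deviations of the members from their means over the 6 arrays, as the mean of Per1, Per2, Per3, Dbp, Tef, Nr1d1 and Nr1d2 minus Npas2, without Cry1 and Bhlhe41. It was 0.66, -0.54 and -0.49 in the free Ub intestines, against -1.11, 0.99 and 0.49 in the PBS intestines. In each group the contrast was above 0 in some intestines and below 0 in others, a description with no test. Nr1d1 and Per3 have the widest deviations in it. Without them, with the members of a mean above 5 set against Arntl and Clock, a choice made after the data were seen, it was 0.74, -0.34 and -0.50 in the free Ub intestines, against -0.81, 0.54 and 0.36 in the PBS intestines, with the same signs. The same signs are no separate support. This form still holds Dbp, Nr1d2 and Per1, and the 3 intestines highest in Dbp were the lowest in Arntl. Because the values of Dbp fall into 2 sets, no correlation between members is given. The sets come from the measured values and are not groups of the study, and whether the hour of collection or feeding differed between them was not tested.

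**Figure D3:**
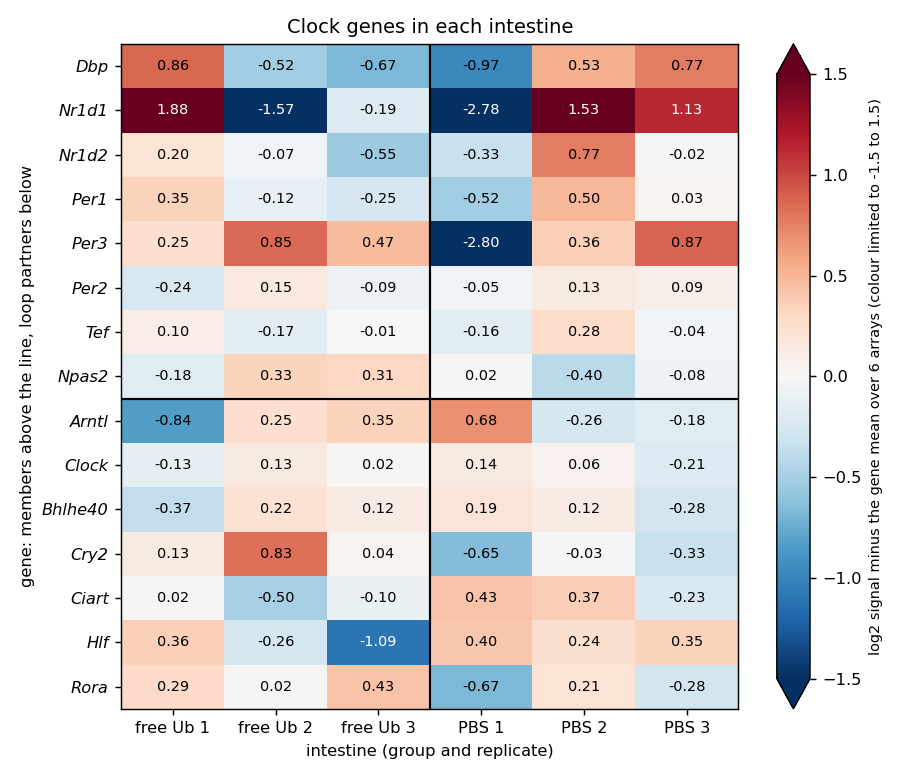
Deviation of each clock gene (rows) from its mean log2 signal over the 6 arrays in each intestine (columns), red for higher and blue for lower. Free Ub 1, PBS 2 and PBS 3 are above the mean for Dbp and Nr1d1 and below it for Npas2 and Arntl, and PBS 1 is the lowest for Dbp at -0.97 and the highest for Arntl at 0.68.

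Arntl, the gene of BMAL1 and the target of REV-ERB, had the reverse order of Dbp at both ends. Its log2 signal was 5.07, 6.16 and 6.26 with free Ub, against 6.59, 5.65 and 5.72 with PBS. Free Ub replicate 1, the highest in Dbp, was the lowest in Arntl, and PBS replicate 1, the lowest in Dbp, was the highest. The difference between groups was -0.16 (interval -1.36 to 1.05, limma, adjusted p = 0.979). Clock, the partner of BMAL1, which is nearly constant over the day in many tissues, read 8.42, 8.69 and 8.58 with free Ub, against 8.69, 8.61 and 8.34 with PBS (difference 0.01).

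Of the 11 other loop genes listed, 9 had a named probe, and 0 passed an adjusted or an unadjusted p under 0.05 (4 higher, 5 lower with free Ub, median -0.02). Of the 7 partners above the floor on all 6 arrays, the 3 intestines highest in Dbp were the lowest in 2, Arntl and Bhlhe40 (by less than 0.01 in Bhlhe40), and mixed in order in 5, Clock, Cry2, Ciart, Hlf and Rora. Cry2, the second cryptochrome, had 5.31, 6.01 and 5.22 with free Ub, against 4.53, 5.15 and 4.84 with PBS. Its groups did not overlap, as for 1 of the 7 partners (11.3% of all probes above the floor), and the difference was 0.67 (interval -0.10 to 1.44, limma p = 0.0742, adjusted p = 0.872, exact permutation p = 0.1). Rora, which activates Arntl against REV-ERB, read 4.09, 3.81 and 4.22 with free Ub, against 3.12, 4.00 and 3.51 with PBS (difference 0.50, adjusted p = 0.872). Hlf, the remaining PAR bZIP factor, read 4.46, 3.85 and 3.02 with free Ub, against 4.51, 4.35 and 4.46 with PBS (difference -0.66, adjusted p = 0.872). The groups overlapped in both, and for Hlf the free Ub intestines were spread more widely. Bhlhe40, the relative of Bhlhe41 also named DEC1, read 9.33, 9.92 and 9.82 with free Ub, against 9.89, 9.82 and 9.42 with PBS (difference -0.02, and 0.02 with median centring). Ciart, which encodes the BMAL1 repressor CHRONO, read 4.74, 4.22 and 4.62 with free Ub, against 5.15, 5.09 and 4.49 with PBS (difference -0.39, adjusted p = 0.872). Its other probes differed by -0.70 and 0.21, so that the probes of Ciart did not point one way. Arntl2 and Rorb were dim, at 1.06 ± 1.10 and 1.78 ± 1.56 with free Ub, against 0.71 ± 0.67 and 2.80 ± 0.57 with PBS (mean ± SD, n = 3), and each was at the floor on at least 1 array.

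**Figure D4:**
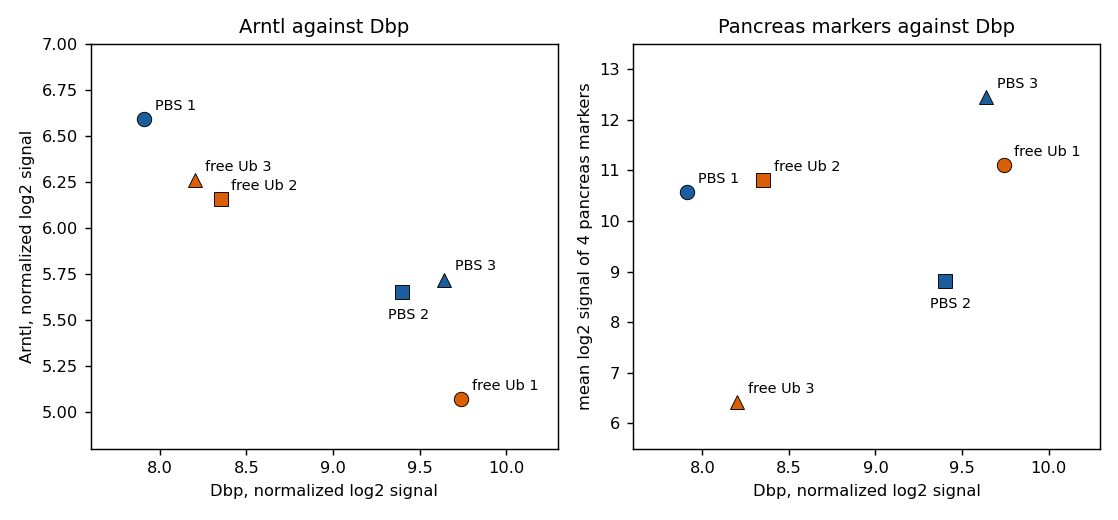
Log2 signal of Arntl (left) and mean log2 signal of 4 pancreas markers (right) against that of Dbp in the 3 free Ub and 3 PBS intestines. Free Ub 1 has the highest Dbp, 9.74, and the lowest Arntl, 5.07, and PBS 1 the lowest Dbp, 7.91, and the highest Arntl, 6.59, while the pancreas markers are lowest in free Ub 3 and highest in PBS 3.

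Among 15 measured genes that modify clock proteins, 1 was higher on its brightest probe at an unadjusted p under 0.05, which 5.16% of all probes passed. After adjustment 0 passed (6 higher, 9 lower, median -0.02). Gsk3b, a kinase that phosphorylates REV-ERB alpha and other clock proteins, had 8.12, 8.26 and 8.14 with free Ub, against 7.88, 7.92 and 8.08 with PBS (difference 0.21, limma p = 0.0414, adjusted p = 0.872, exact permutation p = 0.1). The other probe of Gsk3b, with a mean of 7.55 against 8.07, differed by 0.12 and its groups overlapped (exact permutation p = 0.5). The unadjusted call for Gsk3b therefore rests on 1 of its 2 probes. Cipc, which inhibits CLOCK, differed by -0.21 (adjusted p = 0.872), and Timeless, which acts mainly at the replication fork in mammals, by -1.07 (adjusted p = 0.872).

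Of 19 measured gut genes known as rhythmic or clock controlled, 0 passed the adjusted threshold on the brightest probe (9 higher, 10 lower, median -0.01). On that probe 1, Ccnd1, was lower at an unadjusted p under 0.05 (5.16% of all probes in either direction). Ccnd1, the cyclin D1 of the G1 phase, had 9.36, 9.82 and 9.87 with free Ub, against 10.15, 10.11 and 10.18 with PBS (difference -0.46, limma p = 0.0339, adjusted p = 0.872, exact permutation p = 0.1). Apoa4, an apolipoprotein of chylomicrons, differed by -0.14 (adjusted p = 0.872), but by 0.08 and 0.17 on its other probes, which were nearly as bright. Pdk4, a kinase induced by fasting that limits glucose oxidation, differed by 0.31 (adjusted p = 0.872).

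Per1 is also induced by glucocorticoids, so a list of such genes, with Per1 among them, was read. It shares genes with the list of rhythmic gut genes, among them Tsc22d3 and Pdk4. Of 12 measured, 9 were higher and 3 lower with free Ub (median 0.16), 1 of each at an unadjusted p under 0.05 (5.16% of all probes) and 0 after adjustment. Zbtb16, the transcription factor PLZF, had 4.03, 3.75 and 3.81 with free Ub, against 2.66, 3.05 and 2.77 with PBS (difference 1.03, limma p = 0.000995, adjusted p = 0.271, exact permutation p = 0.1). It was the 1 gene of the list past the study's threshold, which 2.46% of all probes passed. Its probe is dim, with a mean of 3.35. Dusp1, a phosphatase of MAP kinases, had 7.88, 7.96 and 8.29 with free Ub, against 8.46, 8.61 and 8.44 with PBS (difference -0.47, adjusted p = 0.753), the other way. Tsc22d3, the glucocorticoid-induced leucine zipper, differed by 0.02, and Fkbp5, a co-chaperone of the receptor, by 0.49 (adjusted p = 0.872). Averaged over the list, the log2 signal was 8.66, 8.41 and 8.76 with free Ub, against 8.08, 8.52 and 8.23 with PBS, and the groups overlapped. The average includes Mt2, a dim probe with a large difference of 1.87 (adjusted p = 0.872). Mt2 read 2.82, the floor and 4.14 with free Ub, against the floor, 1.35 and the floor with PBS.

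The lowest correlation of an array with another was between 0.946 and 0.970 over probes with a mean above 6. The 12 markers of small intestinal epithelium averaged 8.19 to 8.31 in the free Ub and 8.10 to 8.32 in the PBS intestines, although the probes of Fabp1 and Fabp2, the fatty acid binding proteins of enterocytes, were near or at the floor. The 4 measured of 7 pancreas markers averaged 6.43 to 11.10 with free Ub and 8.81 to 12.45 with PBS, so that the intestines held pancreatic transcripts in unequal amount. Beside Dbp, which was 9.74, 8.35 and 8.20 with free Ub, against 7.91, 9.40 and 9.64 with PBS, the pancreas markers averaged 11.10, 10.81 and 6.43 with free Ub, against 10.58, 8.81 and 12.45 with PBS. PBS replicate 3 and free Ub replicate 1, both high in Dbp, had the highest means and free Ub replicate 3, low in Dbp, the lowest, while PBS replicate 2, high in Dbp, had the second lowest. Averages of 7 smooth muscle markers ran from 7.91 to 8.35 with free Ub and from 6.89 to 8.44 with PBS, and those of 5 measured leukocyte markers from 5.60 to 6.24 with free Ub and from 4.99 to 6.23 with PBS. Those of 6 fibroblast markers ran from 6.24 to 6.97 with free Ub and from 6.03 to 7.11 with PBS, and those of 5 endothelial markers from 4.66 to 4.99 with free Ub and from 4.86 to 5.19 with PBS. The averages were lower for the markers of colon (4.02 to 4.97 with free Ub, 3.67 to 4.35 with PBS), of enteric neurons and glia (3.35 to 3.82 with free Ub, 3.26 to 3.86 with PBS) and of adipocytes (3.71 to 4.44 with free Ub, 3.50 to 4.51 with PBS), although the colon marker Slc26a3 read 8.90 to 9.17 with free Ub and 8.28 to 9.12 with PBS and the adipocyte marker Cidec 9.12 to 9.42 with free Ub and 8.69 to 9.30 with PBS. The part of these cells in the clock values was not tested.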

How the data were processed

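The authors processed raw signals in GenomeStudio (version and background handling not given in the sources used here) and normalized them by cubic spline. The deposited values state no scale and were read as log2 from their range, 0 to 14.49. The 6 columns share their quantiles above the floor, and 32.7% of values lie at it. No detection p-values were used, so whether a probe was above background was judged by brightness alone. The platform annotation gave 34885 probes 1 symbol, 18 several and 10378 none. Free Ub minus PBS was fitted for all 45281 probes without covariates (limma 3.58.1, R 4.3.3, two-sided tests, p-values adjusted by Benjamini-Hochberg across the whole array), and the procedure was tested on simulated data. The study's threshold was a fold change above 2 with an unadjusted p under 0.05. The text names all members and loop partners, up to 3 genes of the functional lists with the smallest p, and Tsc22d3 and Fkbp5. Hdac3, Slc2a2 and Nampt were added for their other probes, and Mt2 for its floor values. Marker lists are given as averages. Alternatives were quantile normalization, median centring, values raised to 4, a filter on dim probes, an intensity trend, a replicate block, 1 probe or the mean of probes per gene, the methods' unpaired t-test and leaving out each sample. The members and lists were chosen with earlier results of these data known.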

Additional observations from a re-analysis of the deposited data

How the results depend on the processing

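No member or loop partner passed an adjusted p under 0.05 under any alternative, the lowest being 0.471 over the 15 genes above the floor. The count at an unadjusted p under 0.05 was 0 to 1 for members (1, Npas2, without free Ub replicate 1) and 0 to 1 for partners without 1 sample. It was 1 for partners, Cry2 (adjusted p = 0.834), with the replicate number as a block, and the block changed no other call. Whether the numbers pair the samples is not known. Samples with the same number correlated at -0.14, -0.019 and -0.486 in their deviations from the group means, and those with different numbers at -0.355 to 0.435. These values cannot exclude a pairing, since deviations within a group must cancel. Over all probes the adjusted calls were 24 as reported, 0 with the block, the intensity trend or the filter on dim probes, 1 with values raised to 4, 11 and 6 with 1 probe or the mean of probes per gene, 11 with the methods' test (900 at the study's threshold) and, without 1 sample, 11 to 82 higher and 12 to 84 lower. Of 225 alternative differences 23 took the other direction, 19 of them without 1 sample. Per1 read 0.02 and Bhlhe40 0.02 with median centring, and Per2 0.18 and Clock -0.08 with the mean of probes. Without 1 sample, the differences ran from -0.27 to 0.24 for Per1, -0.10 to 1.74 for Per3, -0.76 to 0.11 for Dbp, -0.15 to 0.07 for Tef, -1.29 to 0.88 for Nr1d1, -0.52 to 0.03 for Nr1d2, -0.37 to 0.22 for Arntl, -0.09 to 0.08 for Clock and -0.16 to 0.16 for Bhlhe40. The cause was not tested. The contrast of each intestine kept its sign with Arntl and Clock added to the arm of Npas2. It also did with genes of a mean above 5 set against Arntl and Clock, a choice made after the data were seen. Both forms still hold Dbp, Nr1d2 and Per1, so the kept sign is no separate check. The planned form with members of a mean above 6 gave no value, since its opposite arm was Npas2 and Cry1 and both are dimmer. The correlations of Dbp with the other genes were not run, because its values fall into 2 sets.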
